A study of Homo sapiens with 60 samples.

Results

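The genes described here are the receptors EGFR, ERBB3 and ERBB4, the ligands AREG, EREG, HBEGF, TGFA, BTC and NRG1, and the feedback inhibitor ERRFI1. They were chosen by name, with earlier results of these data known, so counts of members beside those of all genes are description only. Every probe set that the platform's annotation gives 1 of these symbols was used. That left 36 probe sets for 9 of the 10 genes, out of 19775 genes in the series. AREG was not analysed here. RNA was measured on 60 Affymetrix U133 Plus version 2 arrays in 12 groups of 5 arrays, from 3 human breast lines under 4 conditions. SKBR3 came from a mammary adenocarcinoma and overexpresses HER-2, the product of ERBB2. C5.2 is HB4a carrying a full-length HER-2 cDNA, and HB4a is a line of normal breast epithelium. Each line received doxorubicin at 30 nM, rapamycin at 20 nM, both drugs at those doses, or the DMSO vehicle. Rapamycin blocks mTORC1, a kinase complex that drives growth, and doxorubicin damages DNA by poisoning topoisomerase II. The 5 arrays of a group come from independent experiments, numbered 1, 2, 3, 4 and 6. The labels give no treatment time and do not say whether C5.2 is a single clone. The medium of C5.2 and HB4a held insulin and hydrocortisone and that of SKBR3 did not, so line and medium cannot be told apart.

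ERBB receptors are cell surface tyrosine kinases that pair when a ligand binds, and they signal through the RAS to ERK and the PI3K to mTORC1 pathways. EGFR binds TGFA and, like ERBB4, HBEGF, BTC and EREG, whereas NRG1 binds ERBB3 and ERBB4. HER-2 has no known ligand of its own and is the preferred partner of the others, among them ERBB3, whose own kinase is weak. ERRFI1 (also known as MIG6) binds active EGFR and HER-2 and blocks their kinase domains, and its gene is itself induced by growth factor signalling.

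Values are log2 summaries by RMA, the method the submitters name, and differences are log2 differences of group means ± the standard error from limma, with 5 arrays per group. A gene was tested where its brightest probe set passed log2 5 on at least 5 arrays of the fit, and it rose or fell where its Benjamini-Hochberg adjusted p over all tested genes was under 0.05. Array medians lay between 1.41 and 1.71. A group with at least 2 of 5 arrays at or under their own array median was taken as at background, and a difference from it is given as "at least". ERBB2 lay between 10.85 and 11.87 on the SKBR3 arrays and between 11.63 and 12.23 on those of C5.2, against 6.11 to 7.21 in HB4a, so no HB4a array overlapped the other lines. Of 5 epithelial markers, 4 averaged above 5 in SKBR3 (CDH1, the gene of E-cadherin, was at background) and all 5 in C5.2 and in HB4a. Of the basal markers KRT5, KRT14 and CDH3, 0 of 3 passed that level in SKBR3, 2 of 3 in C5.2 and 2 of 3 in HB4a. Markers of leukocytes and endothelium averaged under 5 in every line (0 of 4 and 0 of 5). The SKBR3 vehicle array of experiment 3 stood apart from its group: 7 of 8 genes typical of HB4a and C5.2 exceeded the other 4 vehicle arrays there, by a median log2 difference of 1.60. Arrays that an earlier analysis of these data found apart (HB4a number 1 and rapamycin number 4, C5.2 number 2, SKBR3 number 1) lay a median of 0.391, 0.436 and 0.330 log2 units from their group's median profile in HB4a, C5.2 and SKBR3, against 0.210, 0.183 and 0.210 for the other arrays of these lines.

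Which receptor and ligand genes each line expressed set what could be compared. ERBB4, EREG and BTC lay at background in all 12 groups. All 240 values of the 4 ERBB4 probe sets, all 120 of the 2 EREG probe sets and all 120 of the 2 BTC probe sets were at or under the array median. TGFA and NRG1 were at background in the 4 SKBR3 groups. EGFR, ERBB3, HBEGF and ERRFI1 were above background everywhere, although in SKBR3 HBEGF reached only 3.18 and was not tested within that line, and in C5.2 neither ERBB3 nor TGFA passed the filter. These statements are for each gene's brightest probe set. Probe sets of 1 gene differed widely in brightness: of the 9 EGFR probe sets, 3 exceeded log2 5, and of the 5 for ERBB3, 2 did. Levels of different genes are therefore not set against each other.

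**Figure D1:**
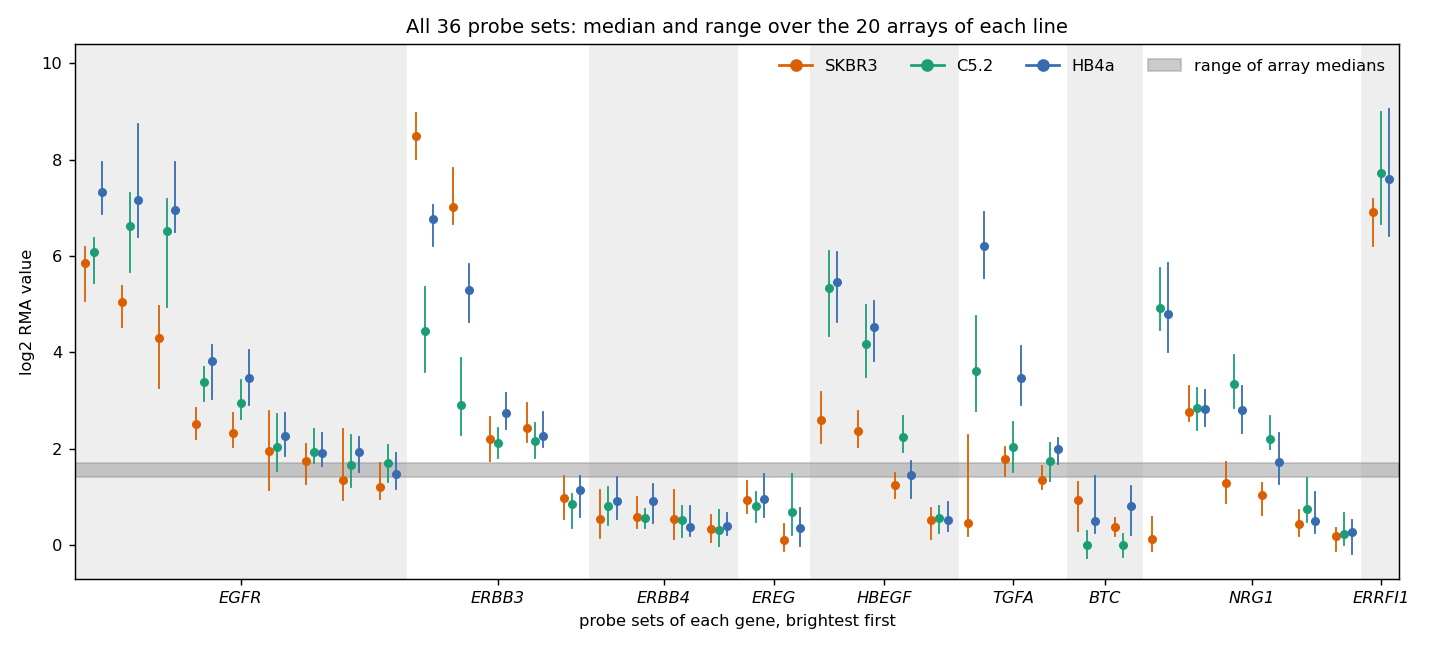
Log2 RMA level (vertical axis) of the 36 probe sets, grouped by gene and ordered by brightness, with the median (point) and range (line) over the 20 arrays of SKBR3, C5.2 and HB4a. The grey band spans the array medians (1.41 to 1.71): ERBB4, EREG and BTC lie within or under it in every line, TGFA's and NRG1's brightest probe sets lie under it in SKBR3 (1 array apart, TGFA at 2.29), and ERRFI1 lies far above it throughout.

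Promoter sequence is shown for the members whose RNA moved together in HB4a in the results that follow, HBEGF and TGFA with doxorubicin and EGFR and ERRFI1 with rapamycin, and for EREG as a member at background. The lines give the 250 bases before the gene's start, 5′ to 3′ on the gene's strand, from RefSeq's annotation of GRCh38.p14. HBEGF lies at chr5:140346604-140346853 (minus strand), TGFA at chr2:70553827-70554076 (minus strand), EGFR at chr7:55018767-55019016 (plus strand), ERRFI1 at chr1:8026310-8026559 (minus strand) and EREG at chr4:74364895-74365144 (plus strand). Capitals mark matches to the motifs searched.
HBEGF: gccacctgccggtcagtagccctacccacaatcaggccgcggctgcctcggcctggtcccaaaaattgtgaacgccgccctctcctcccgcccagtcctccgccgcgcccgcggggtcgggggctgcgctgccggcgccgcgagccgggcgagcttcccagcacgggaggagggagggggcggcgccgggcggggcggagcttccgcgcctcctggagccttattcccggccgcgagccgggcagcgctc
TGFA: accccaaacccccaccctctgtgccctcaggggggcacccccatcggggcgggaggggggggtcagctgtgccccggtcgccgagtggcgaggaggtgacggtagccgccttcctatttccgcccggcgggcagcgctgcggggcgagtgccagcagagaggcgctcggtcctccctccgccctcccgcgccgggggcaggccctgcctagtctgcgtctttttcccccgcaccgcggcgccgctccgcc
EGFR: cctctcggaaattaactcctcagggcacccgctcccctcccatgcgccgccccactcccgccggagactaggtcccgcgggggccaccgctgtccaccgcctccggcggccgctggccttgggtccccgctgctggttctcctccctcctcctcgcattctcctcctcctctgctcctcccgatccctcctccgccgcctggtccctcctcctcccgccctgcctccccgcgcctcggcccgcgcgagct
ERRFI1: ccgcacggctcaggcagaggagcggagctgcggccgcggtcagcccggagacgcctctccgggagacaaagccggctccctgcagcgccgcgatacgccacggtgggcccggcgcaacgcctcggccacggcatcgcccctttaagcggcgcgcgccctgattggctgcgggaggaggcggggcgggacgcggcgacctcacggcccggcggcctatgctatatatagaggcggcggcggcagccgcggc
EREG: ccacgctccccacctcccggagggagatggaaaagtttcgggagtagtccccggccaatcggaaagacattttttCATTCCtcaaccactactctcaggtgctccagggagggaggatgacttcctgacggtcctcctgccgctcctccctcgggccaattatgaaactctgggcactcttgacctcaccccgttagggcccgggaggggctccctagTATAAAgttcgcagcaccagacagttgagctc
Both strands were searched for the AP-1 motif TGANTCA, the cyclic AMP response element TGACGTCA, the EGR motif GCGGGGGCG, the TEAD motif GGAATG, the FOXO motif TGTTTAC and the TATA box TATAAA. None of these exact strings occurred in the windows of HBEGF, TGFA, EGFR and ERRFI1. Variants of a motif were not searched. The ERRFI1 window holds tatatata near its end, which the string TATAAA does not match, so a TATA box there is not excluded. EREG held TATAAA at bases -32 to -27 from the start and the TEAD motif, on the opposite strand, at bases -175 to -170. Of 34788 such windows, 10.8% held TATAAA, 11.9% the TEAD motif, 6.59% the AP-1 motif, 4.72% the EGR motif, 2.98% the FOXO motif and 1.64% the cyclic AMP element. The windows of HBEGF, TGFA, EGFR and ERRFI1 had G or C at 76.4%, 75.6%, 73.6% and 75.2% of bases, EREG at 58.0%, which was also the median of all windows. Of the 10 listed genes, 8 had a promoter entry.

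In vehicle, the lines differed strongly in ERBB3, the receptor for NRG1. Its level was 8.13, 8.33, 8.42, 8.55 and 8.47 in SKBR3 (experiments 1, 2, 3, 4 and 6), 4.21, 4.22, 4.17, 4.15 and 4.93 in C5.2, and 6.38, 6.54, 6.60, 6.88 and 6.65 in HB4a. The 3 lines did not overlap, with SKBR3 highest and C5.2 lowest. ERBB3 was 1.77 ± 0.11 higher in SKBR3 than in HB4a (3.42-fold, adjusted p = 5.4e-17) and 4.05 ± 0.19 higher in SKBR3 than in C5.2 (16.5-fold, adjusted p = 6.48e-21). In C5.2 it was lower than in HB4a by a difference of -2.27 ± 0.21 (4.83-fold, adjusted p = 5.39e-12). In both comparisons with C5.2, ERBB3 passed the filter only through the other line, where it was high. The second ERBB3 probe set gave the same order, with differences of 1.84 for SKBR3 and -2.37 for C5.2 against HB4a. The dimmer 1563253_s_at did not. In vehicle it averaged 2.10 in SKBR3 (1.75 to 2.48), 2.17 in C5.2 and 2.84 in HB4a (2.67 to 2.97). With the brightest and the second probe set, the lines with raised HER-2 thus lay on opposite sides of HB4a in ERBB3. Arrays of whole cultures cannot tell less RNA per cell from fewer cells of a kind.

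EGFR was lower in both HER-2-rich lines. Its level was 5.08, 5.64, 5.83, 5.68 and 5.71 in SKBR3, 5.51, 5.43, 5.91, 6.02 and 6.14 in C5.2, and 7.09, 7.45, 7.04, 7.26 and 7.19 in HB4a. With this brightest probe set every HB4a array exceeded every array of the other lines, and SKBR3 and C5.2 overlapped. The difference was -1.62 ± 0.17 for SKBR3 (3.07-fold lower, adjusted p = 3.51e-11) and -1.40 ± 0.13 for C5.2 (2.65-fold lower, adjusted p = 8.41e-12), each against HB4a. SKBR3 and C5.2, neighbours in the order, were not shown to differ with this probe set (-0.21 ± 0.18, 95% interval -0.57 to 0.14, adjusted p = 0.263). The other EGFR probe sets that passed the filter did not give the same picture. Probe set 201983_s_at gave -1.91 ± 0.31 and 224999_at gave -1.59 ± 0.22 for SKBR3 against C5.2 (adjusted p = 8.89e-07 and 3.45e-08 in a fit of all probe sets), so the order of these lines depends on the probe set. Both put C5.2 nearer to HB4a. In vehicle 224999_at averaged 6.34 in C5.2 (5.72 to 6.69) and 7.18 in HB4a (6.63 to 7.57), with overlap. The means of 201983_s_at were 5.98 in C5.2 and 6.93 in HB4a, without overlap.

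Among the ligands, TGFA separated all 3 lines with its brightest probe set. It was at background in SKBR3, at 0.58, 0.79, 2.29, 0.44 and 0.46, where 2.29 is the array with raised HB4a and C5.2 genes. It was 3.29, 3.09, 3.30, 3.47 and 3.79 in C5.2, against 5.88, 6.07, 5.78, 5.99 and 5.54 in HB4a. No 2 lines overlapped. TGFA was at least 4.19 lower in SKBR3 than in HB4a (18.3-fold), and at least 4.35 without that array. The limma adjusted p of 2.77e-22 is of the full difference, not of the bound. TGFA passed the filter only through HB4a, where it was high. It was lower in C5.2 than in HB4a by a difference of -2.46 ± 0.20 (5.52-fold, adjusted p = 1.46e-13). Between SKBR3 and C5.2 it did not pass the filter, and the bound was at least 1.73. Dimmer TGFA probe sets did not separate all 3 lines. Over the 20 arrays of each line 205015_s_at was 1.43 to 2.03 in SKBR3, 1.52 to 2.55 in C5.2 and 2.91 to 4.13 in HB4a. It was at or under the array median on 1 of 20 SKBR3 arrays, and 211258_s_at on 19 of 20. The bounds are thus for the brightest probe set.

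HBEGF and NRG1, by contrast, were not shown to differ between C5.2 and HB4a with their brightest probe sets, and both were far lower in SKBR3. HBEGF was 2.34 to 2.73 in SKBR3, 4.56 to 5.60 in C5.2 and 4.62 to 5.16 in HB4a. The C5.2 arrays spread more widely than those of HB4a and spanned them. The difference was -2.35 ± 0.16 for SKBR3 against HB4a (5.09-fold lower, adjusted p = 2.56e-16), -2.52 ± 0.24 for SKBR3 against C5.2 (5.75-fold lower, adjusted p = 5.22e-12) and 0.18 ± 0.25 for C5.2 against HB4a (95% interval -0.32 to 0.68, adjusted p = 0.577). NRG1 was at background in SKBR3 (-0.06 to 0.59), against 4.81 to 5.54 in C5.2 and 4.61 to 5.36 in HB4a. That made it at least 3.40 lower in SKBR3 than in HB4a and at least 3.60 lower than in C5.2 (10.5-fold and 12.1-fold). The limma adjusted p values of 2.96e-26 and 5.41e-28 are of the full differences, not of these bounds. In comparisons with SKBR3, HBEGF and NRG1 passed the filter only through HB4a or C5.2, where they were high. C5.2 and HB4a differed in NRG1 by 0.20 ± 0.16 (95% interval -0.12 to 0.52, adjusted p = 0.297). Dimmer probe sets of both genes did not all give this picture. HBEGF's 38037_at overlapped between the 20 arrays of C5.2 (3.50 to 4.97) and those of HB4a (3.82 to 5.07). The still dimmer 244857_at did not overlap. It was 1.94 to 2.69 in C5.2 and 0.97 to 1.76 in HB4a, where 17 of 20 arrays were at or under the array median. For NRG1 the values are from the fit of all probe sets with no filter. Probe set 206237_s_at averaged 1.28 in SKBR3, 3.57 in C5.2 and 3.04 in HB4a, and was higher in C5.2 than in HB4a by 0.53 ± 0.14 (adjusted p = 0.00207). Probe set 208232_x_at lay at 2.40 to 3.31 in all 3 lines, with no difference shown between SKBR3 and HB4a (-0.0016 ± 0.15, adjusted p = 0.993).

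The inhibitor ERRFI1 was expressed strongly in all 3 lines. Its level in vehicle was 6.20 to 6.96 in SKBR3, 6.99 to 7.74 in C5.2 and 7.17 to 7.71 in HB4a. SKBR3 lay under both other lines on every array, by -0.94 ± 0.16 against HB4a (1.92-fold lower, adjusted p = 1.87e-06) and -0.84 ± 0.23 against C5.2 (1.78-fold lower, adjusted p = 0.00158), while C5.2 and HB4a were not shown to differ (-0.11 ± 0.21, 95% interval -0.54 to 0.33, adjusted p = 0.698). Of the members tested, 1 was higher and 5 lower of 6 in SKBR3 against HB4a, where 77.3% of 7270 genes were called, 37.6% higher and 39.7% lower. Between C5.2 and HB4a 0 of 6 were higher and 3 lower, where 49.2% of 6962 genes were called, 29.3% higher and 19.9% lower. Between SKBR3 and C5.2 1 of 5 was higher and 3 lower, where 78.8% of 7324 genes were called, 36.2% higher and 42.6% lower. The arrays did not overlap for 6 of 6 members in SKBR3 against HB4a, 3 of 6 in C5.2 against HB4a and 4 of 5 in SKBR3 against C5.2, where 64.5%, 37.6% and 66.3% of genes did not. Several members were tested because 1 line was high: HBEGF, TGFA and NRG1 passed the filter through HB4a against SKBR3, ERBB3 and TGFA through HB4a against C5.2, and between SKBR3 and C5.2 ERBB3 passed through SKBR3 and HBEGF and NRG1 through C5.2. Nothing is read from these counts, and calls are common between these lines. The epithelial markers moved with the C5.2 difference: their summed level, as log2 of the sum, was 10.0 to 11.4 on the 20 C5.2 arrays, against 12.1 to 12.8 on those of HB4a. That of 5 mesenchymal markers was 11.8 to 12.4 in C5.2 and 9.69 to 10.3 in HB4a. The part of these markers in the lower EGFR, ERBB3 and TGFA of C5.2 was not tested.

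**Figure D2:**
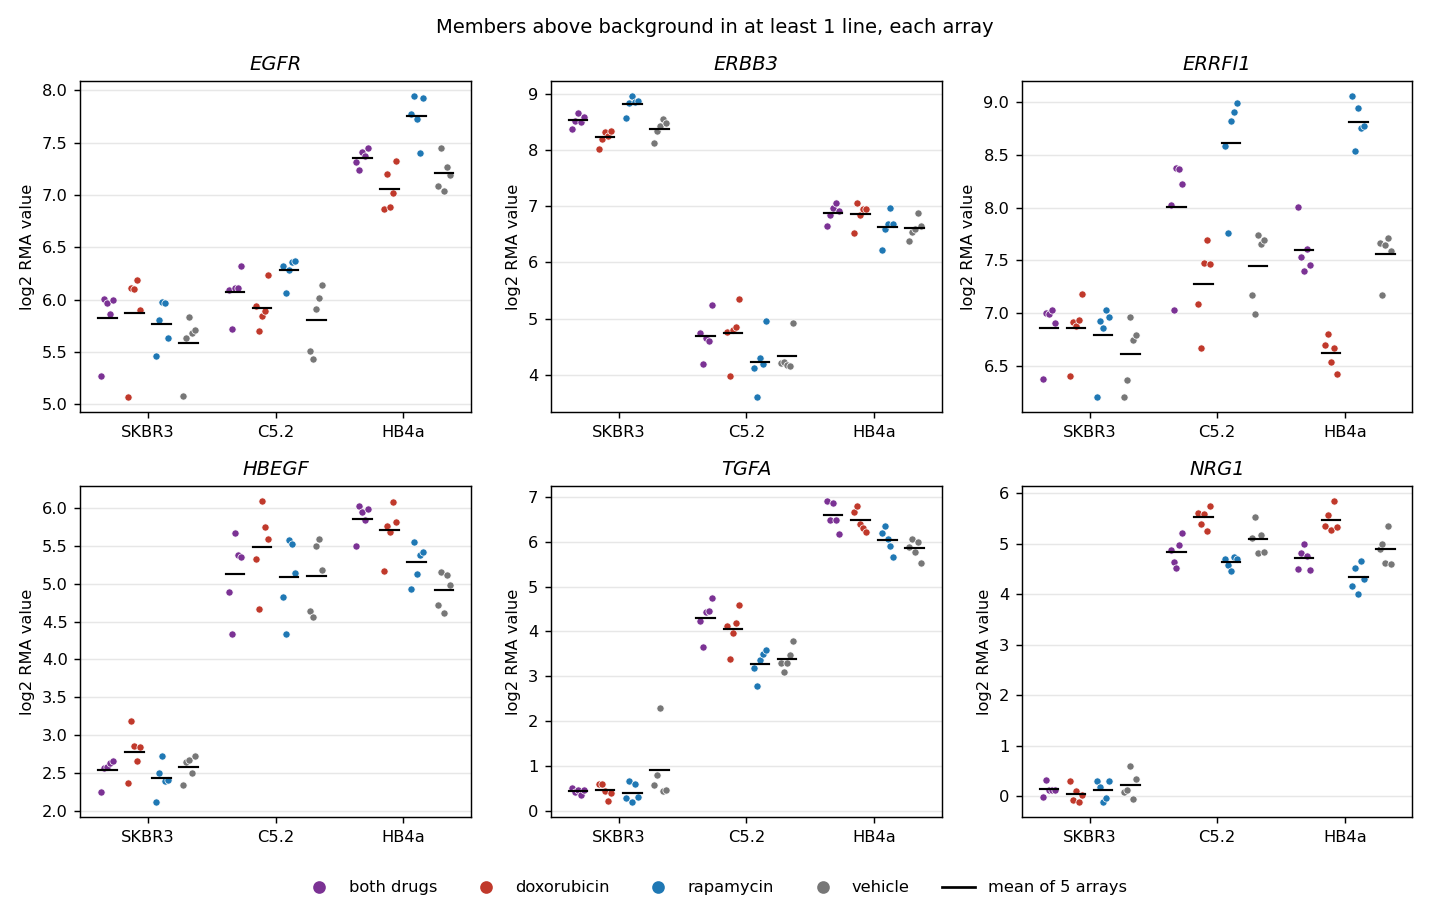
Log2 RMA level (vertical axes, which differ between panels and do not start at 0) of the 6 members above background in at least 1 line, 1 point per array, black bars for the mean of 5. Within SKBR3, C5.2 and HB4a the columns run both drugs, doxorubicin, rapamycin, vehicle. ERRFI1 peaks with rapamycin in C5.2 and HB4a (means 8.61 and 8.82) but not in SKBR3 (6.79), and ERBB3 peaks with rapamycin in SKBR3 (8.82).

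In HB4a, doxorubicin was followed by more RNA of 3 ligands and less of the inhibitor. ERRFI1 fell to 6.69, 6.81, 6.54, 6.66 and 6.42 with doxorubicin, against 7.66, 7.17, 7.65, 7.71 and 7.59 in vehicle. The groups did not overlap and the difference was -0.93 ± 0.13 (1.91-fold lower, adjusted p = 6.05e-05). HBEGF, the heparin-binding ligand, was 5.16, 5.77, 5.69, 6.09 and 5.82 with doxorubicin, against 4.73, 5.16, 4.62, 5.12 and 4.99 in vehicle. The lowest doxorubicin array lay just above the highest vehicle array, and HBEGF rose by 0.78 ± 0.17 (1.72-fold, adjusted p = 0.00377). TGFA was 6.66, 6.81, 6.39, 6.30 and 6.23 with doxorubicin, against 5.88, 6.07, 5.78, 5.99 and 5.54 in vehicle, again without overlap, a rise of 0.63 ± 0.16 (1.54-fold, adjusted p = 0.0135).

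NRG1 was 5.35, 5.56, 5.28, 5.85 and 5.33 with doxorubicin, against 4.91, 5.00, 4.62, 5.36 and 4.61 in HB4a vehicle. The groups overlapped through the vehicle array of experiment 4, yet within each of the 5 experiments NRG1 was higher with doxorubicin, by 0.45 to 0.72. It rose by 0.58 ± 0.17 (1.49-fold, adjusted p = 0.0301), a call that ended under quantile normalization (0.51, adjusted p = 0.0714) and on leaving out doxorubicin array 2 or 4 or vehicle array 1, 3 or 6 (adjusted p from 0.0587 to 0.101). ERBB3 differed by 0.26 ± 0.13 (adjusted p = 0.239) and was higher in 5 of 5 experiments, and it was called with the experiment number as a block (adjusted p = 0.0136). EGFR differed by -0.15 ± 0.12 (adjusted p = 0.465). Of 6 tested members 3 rose and 1 fell, where 8.66% of 6167 genes rose and 2.77% fell (11.4% called, 32.7% with the block). The groups did not overlap for 3 of the 6, where 9.76% of genes did not. The median difference was 0.42 over the tested members and 0.06 over all genes.

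Rapamycin moved ERRFI1 the other way in HB4a. It rose to 9.06, 8.54, 8.95, 8.76 and 8.77 with rapamycin, against 7.66, 7.17, 7.65, 7.71 and 7.59 in vehicle. Every rapamycin array exceeded every vehicle array, and the rise was 1.26 ± 0.13 (2.39-fold, adjusted p = 3.76e-06). EGFR was 7.78, 7.94, 7.72, 7.40 and 7.93 with rapamycin, against 7.09, 7.45, 7.04, 7.26 and 7.19 in vehicle. The groups overlapped only in rapamycin array 4, and EGFR rose by 0.55 ± 0.12 (1.46-fold, adjusted p = 0.00943), although with only the arrays compared in the fit the adjusted p was 0.0521. The third EGFR probe set by brightness, 201983_s_at, gave 0.66 ± 0.16 (adjusted p = 0.0192) and the second, 224999_at, 0.60 ± 0.27 (adjusted p = 0.3), both from the fit of all probe sets. NRG1 was 4.17, 4.53, 4.0, 4.67 and 4.31 with rapamycin and 4.91, 5.00, 4.62, 5.36 and 4.61 in vehicle, lower in 5 of 5 experiments. Its difference of -0.56 ± 0.17 missed the threshold (adjusted p = 0.0752) and passed it with the block (adjusted p = 0.00356). HBEGF differed by 0.36 ± 0.17 (adjusted p = 0.297, and 0.0183 with the block), TGFA by 0.18 ± 0.16 (adjusted p = 0.66) and ERBB3 by 0.02 ± 0.13 (adjusted p = 0.97). In all 2 of 6 tested members rose and 0 fell, where 2.08% of genes rose and 1.1% fell (3.18% called, 16.3% with the block). The groups did not overlap for 1 of 6, where 4.15% of genes did not. The median difference was 0.27 over these members and 0.01 over all genes.

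With both drugs HBEGF and TGFA rose in HB4a, and ERRFI1 lay near its vehicle level. ERRFI1 was 8.01, 7.53, 7.40, 7.60 and 7.45 with both drugs, inside and around the vehicle range of 7.17 to 7.71, a difference of 0.04 ± 0.13 (95% interval -0.23 to 0.31, adjusted p = 0.866). Set against doxorubicin alone it was 0.98 ± 0.13 higher (adjusted p = 1.06e-04), and set against rapamycin alone it differed by -1.22 ± 0.13 (adjusted p = 3.81e-06), without overlap in either case. HBEGF was 5.50, 6.03, 5.95, 5.84 and 5.99 with both drugs and rose by 0.94 ± 0.17 against vehicle (1.92-fold, adjusted p = 4.17e-04). TGFA was 6.91, 6.49, 6.88, 6.48 and 6.19 and rose by 0.74 ± 0.16 (1.67-fold, adjusted p = 0.00262). All arrays with both drugs exceeded all vehicle arrays for these 2 ligands. NRG1 differed from vehicle by -0.19 ± 0.17 (adjusted p = 0.509), EGFR by 0.15 ± 0.12 (adjusted p = 0.433) and ERBB3 by 0.28 ± 0.13 (adjusted p = 0.171). Of 6 tested members 2 rose and 0 fell, where 10.9% of genes rose and 6.49% fell (17.4% called), and the same 2 did not overlap, where 12.5% of genes did not.

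Between the combined treatment and each drug alone in HB4a, NRG1 was the ligand that changed against doxorubicin. It was 4.51, 4.82, 4.99, 4.76 and 4.49 with both drugs and 5.35, 5.56, 5.28, 5.85 and 5.33 with doxorubicin, without overlap. The difference was -0.76 ± 0.17 (1.70-fold lower, adjusted p = 0.0144), and -0.67 without doxorubicin array 4 (adjusted p = 0.0561). HBEGF and TGFA differed from doxorubicin alone by 0.15 ± 0.17 and 0.11 ± 0.16 (adjusted p = 0.708 and 0.8). Against doxorubicin 1 of 6 members was higher and 1 lower, where 1.15% of genes were higher and 1.43% lower (2.58% called), and 2 of 6 did not overlap, where 4.26% of genes did not. Against rapamycin 2 were higher and 2 lower, where 5.66% of genes were higher and 3.18% lower (8.84% called), and 1 of 6 did not overlap, where 6.13% of genes did not. These were HBEGF by 0.57 ± 0.17 and TGFA by 0.56 ± 0.16 (adjusted p = 0.0319 and 0.0317), EGFR by -0.40 ± 0.12 (adjusted p = 0.0361) and ERRFI1 as given. The first 3 of these sat close to the threshold. With only the arrays compared in the fit their adjusted p was 0.0687, 0.114 and 0.104. HBEGF lost its call without rapamycin array 1 or 3 or both-drug array 2, 3, 4 or 6 (adjusted p from 0.0607 to 0.0872). TGFA lost it without rapamycin array 3, 4 or 6 or both-drug array 1 or 3 (0.058 to 0.097), and EGFR without rapamycin array 1, 2, 3 or 6 or both-drug array 2, 3, 4 or 6 (0.0589 to 0.0899).

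Dimmer probe sets of the ligands were tested with no filter over all probe sets. In HB4a they gave the same direction for HBEGF and TGFA, and for NRG1 with rapamycin but not with doxorubicin. HBEGF's 38037_at differed from vehicle by 0.64 ± 0.16 with doxorubicin and 0.68 ± 0.16 with both drugs (adjusted p = 0.0251 and 0.012). TGFA's 205015_s_at differed by 0.46 ± 0.18 with doxorubicin (adjusted p = 0.24) and 0.21 ± 0.18 with both drugs (adjusted p = 0.669). NRG1's 206237_s_at differed by -0.11 ± 0.15 with doxorubicin (adjusted p = 0.84) and -0.40 ± 0.15 with rapamycin (adjusted p = 0.32), so the NRG1 rise with doxorubicin was called with the brightest probe set and not with this one. In C5.2 the same NRG1 probe set was lower with both drugs than with doxorubicin by a difference of -0.71 ± 0.13 (adjusted p = 0.00522).

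**Figure D3:**
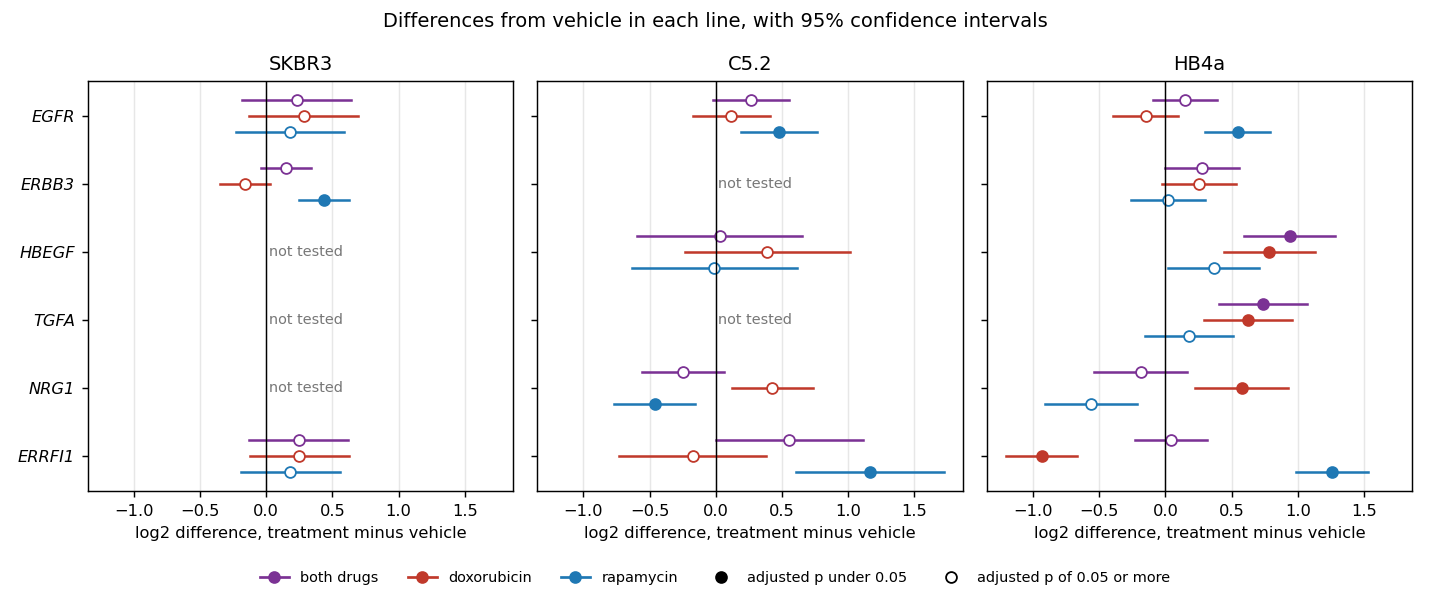
Log2 difference from vehicle (horizontal axis) with its 95% confidence interval for both drugs, doxorubicin and rapamycin in SKBR3, C5.2 and HB4a. Filled points have an adjusted p under 0.05, and members that did not pass the filter in a line are marked as not tested. ERRFI1 in HB4a lies at -0.93 with doxorubicin, at 1.26 with rapamycin and at 0.04 with both.

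In C5.2, rapamycin was followed by more ERRFI1 and EGFR, as in HB4a, and by less NRG1. ERRFI1 was 8.58, 7.76, 8.82, 8.91 and 8.99 with rapamycin, against 7.17, 6.99, 7.74, 7.66 and 7.69 in vehicle. The lowest rapamycin array, from experiment 2, was only just above the highest vehicle array. ERRFI1 rose by 1.16 ± 0.27 (2.24-fold, adjusted p = 0.00559), and by 0.77 to 1.41 within the 5 experiments. EGFR was 6.32, 6.06, 6.29, 6.36 and 6.37 with rapamycin, against 5.51, 5.43, 5.91, 6.02 and 6.14 in vehicle, higher in 5 of 5 experiments. It rose by 0.48 ± 0.14 (1.39-fold, adjusted p = 0.0225), a call lost with no filter (adjusted p = 0.0565), without vehicle array 2 (0.38, adjusted p = 0.0785) and without rapamycin array 4 (0.46, adjusted p = 0.0556). NRG1 was 4.69, 4.58, 4.47, 4.75 and 4.70 with rapamycin, against 5.11, 5.54, 4.81, 5.18 and 4.84 in vehicle, without overlap. It fell by 0.46 on the log2 scale (SE 0.15, 1.38-fold, adjusted p = 0.0357), a call lost with no filter (adjusted p = 0.0812), under quantile normalization (adjusted p = 0.0519), without the arrays that stood apart (adjusted p = 0.0932) and on leaving out vehicle array 2 or 4 or rapamycin array 1, 2, 3 or 4 (adjusted p from 0.0536 to 0.12). Of 4 tested members 2 rose and 1 fell, where 2.83% of 6292 genes rose and 14.6% fell (17.4% called), and 2 of 4 did not overlap, where 13.7% of genes did not. The median difference was 0.23 over these members and -0.08 over all genes.

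Doxorubicin alone gave 0 calls among 4 tested members in C5.2, where 3.26% of genes were called. NRG1 was 5.61, 5.40, 5.60, 5.26 and 5.76 with doxorubicin, against 5.11, 5.54, 4.81, 5.18 and 4.84 in vehicle, higher in 4 of 5 experiments. The difference was 0.43 ± 0.15 (adjusted p = 0.145, and 0.0385 with the block). HBEGF was 5.33, 4.67, 6.10, 5.75 and 5.59 with doxorubicin, against 4.65, 4.56, 5.50, 5.60 and 5.18 in vehicle. The experiments differed more from each other than the treatments did, and within each of the 5 experiments HBEGF was higher with doxorubicin, by 0.10 to 0.68 (0.39 ± 0.30, adjusted p = 0.635, and 0.00491 with the block). ERRFI1 differed by -0.17 ± 0.27 (95% interval -0.73 to 0.38, adjusted p = 0.849). With the block 2 of 4 members were called, where 17.4% of genes were.

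Both drugs together also gave 0 calls among the 4 members in C5.2, where 21% of genes were called. ERRFI1 was 8.03, 7.03, 8.38, 8.37 and 8.22 with both drugs, against 7.17, 6.99, 7.74, 7.66 and 7.69 in vehicle. Array 2 with both drugs lay within the vehicle range and the other 4 above it. The difference was 0.56 ± 0.27 (adjusted p = 0.149), and 0.80 without that array (adjusted p = 0.0172). Against doxorubicin alone ERRFI1 differed by 0.73 ± 0.27 (adjusted p = 0.0748, and 1.29e-05 with the block), and against rapamycin alone by -0.61 ± 0.27 (adjusted p = 0.237, and 7.55e-05 with the block). HBEGF differed from doxorubicin alone by -0.36 ± 0.30 (adjusted p = 0.477, and 0.00344 with the block) and was lower in 5 of 5 experiments. NRG1 was 4.88, 4.65, 4.52, 4.97 and 5.22 with both drugs and 5.61, 5.40, 5.60, 5.26 and 5.76 with doxorubicin alone, without overlap. It was lower than with doxorubicin by a difference of -0.68 ± 0.15 (1.60-fold, adjusted p = 0.00577). Of the 4 tested members that was the 1 call against doxorubicin, where 1.73% of genes were higher and 11.8% lower (13.5% called, 38% with the block), and 1 of 4 did not overlap, where 9.44% of genes did not. Against rapamycin 0 were called, where 6.39% of genes were and 22.2% with the block.

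TGFA did not pass the filter in C5.2, where no array exceeded 4.74, but it was well above background. It was 4.24, 3.65, 4.44, 4.46 and 4.74 with both drugs, 4.12, 3.38, 3.97, 4.19 and 4.59 with doxorubicin, 3.18, 2.79, 3.36, 3.50 and 3.59 with rapamycin, and 3.29, 3.09, 3.30, 3.47 and 3.79 in vehicle. The lowest array of each group came from experiment 2. In the fit with no filter, TGFA with both drugs differed from vehicle by 0.92 ± 0.21 (adjusted p = 0.00931) and from rapamycin by 1.02 ± 0.21 (adjusted p = 0.00787), and with doxorubicin from vehicle by 0.66 ± 0.21 (adjusted p = 0.168). It was higher in 5 of 5 experiments in each of these comparisons. ERBB3, at 3.60 to 5.35 in C5.2, differed from vehicle by 0.41 ± 0.24 with doxorubicin, -0.10 ± 0.24 with rapamycin and 0.35 ± 0.24 with both in that fit, where its adjusted p was 0.624, 0.919 and 0.557.

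In SKBR3, rapamycin was followed by more ERBB3. Its level was 8.56, 8.84, 8.96, 8.86 and 8.86 with rapamycin, against 8.13, 8.33, 8.42, 8.55 and 8.47 in vehicle. The lowest rapamycin array lay just above the highest vehicle array, and within each experiment rapamycin was higher. ERBB3 rose by 0.43 ± 0.09 (1.35-fold, adjusted p = 0.00184), and the second ERBB3 probe set, 202454_s_at, rose by 0.48 ± 0.12 (adjusted p = 0.011 in the fit of all probe sets). With all 60 arrays in 1 fit the adjusted p was 0.0929. EGFR differed by 0.18 ± 0.20 (adjusted p = 0.587) and ERRFI1 by 0.18 ± 0.18 (95% interval -0.19 to 0.55, adjusted p = 0.542). So 1 of 3 tested members rose and 0 fell, where 7.48% of 5977 genes rose and 10.8% fell (18.3% called). That member did not overlap, where 12.7% of genes did not.

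With both drugs ERBB3 was 8.38, 8.51, 8.66, 8.50 and 8.58 in SKBR3, against 8.13, 8.33, 8.42, 8.55 and 8.47 in vehicle. The groups overlapped and the difference was 0.15 ± 0.09 (adjusted p = 0.242, and 0.0306 with the block). Against doxorubicin alone, at 8.02, 8.19, 8.31, 8.25 and 8.34, ERBB3 with both drugs was 0.30 ± 0.09 higher without overlap (1.23-fold, adjusted p = 0.0215), a call lost with each array centred on its median (0.26, adjusted p = 0.0675), with all 60 arrays in 1 fit (adjusted p = 0.244) and without both-drug array 3 or doxorubicin array 1 (adjusted p = 0.0639 and 0.0668). The second ERBB3 probe set gave 0.25 ± 0.12 there (adjusted p = 0.15). Against rapamycin alone the difference was -0.29 ± 0.09 (adjusted p = 0.314, and 0.00279 with the block). Doxorubicin against vehicle gave -0.16 ± 0.09 (adjusted p = 0.876). Both drugs against vehicle gave 0 calls of 3 members, where 22% of genes were called, and doxorubicin against vehicle 0 of 3, where 0.837% were. Against doxorubicin 1 of 3 was higher and did not overlap, where 7.41% of genes were higher and 14.6% lower (22% called) and 13.6% did not overlap. Against rapamycin 0 of 3 were called, where 0.552% of genes were and 6.64% with the block. EGFR (0.23 ± 0.20, adjusted p = 0.403) and ERRFI1 (0.24 ± 0.18, adjusted p = 0.331) with both drugs were called with the block (adjusted p = 0.0452 and 0.0246), when 50.5% of genes were.

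Levels also differed between experiments. In SKBR3 the array of experiment 1 was the lowest of its group for EGFR, ERBB3 and ERRFI1 in all 4 groups, and in C5.2 that of experiment 2 was the lowest for EGFR, HBEGF, TGFA and ERRFI1 in all 4. For ERRFI1 in C5.2 the 5 vehicle values spanned 6.99 to 7.74, and the rise with rapamycin was between 0.77 and 1.41 in each experiment. With both drugs the difference from vehicle was between 0.04 and 0.86. The SDs of ERRFI1 in C5.2 were 0.56 with both drugs, 0.40 with doxorubicin, 0.50 with rapamycin and 0.34 in vehicle. In HB4a they were 0.24, 0.15, 0.20 and 0.22 in the same order.

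**Figure D4:**
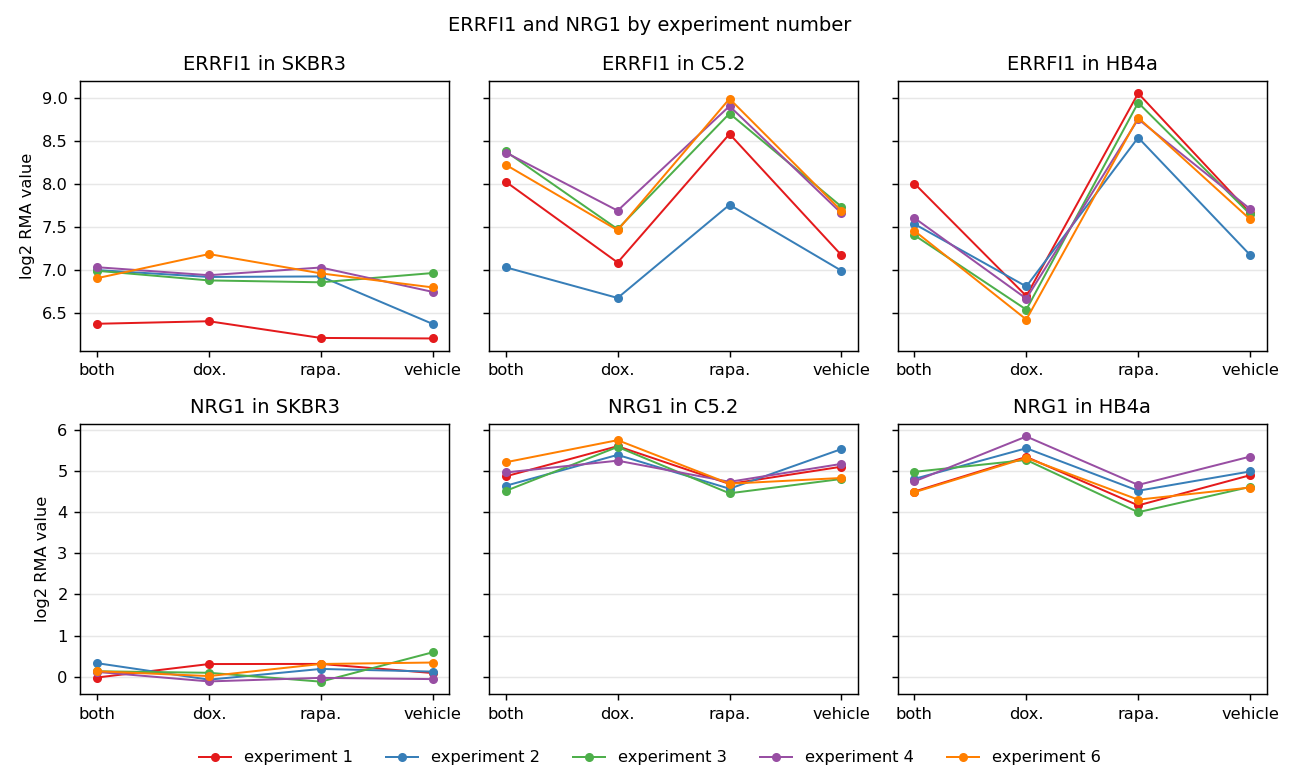
Log2 RMA level (vertical axis, shared within a row) of ERRFI1 (upper row) and NRG1 (lower row) with both drugs, doxorubicin, rapamycin and vehicle, joined by experiment number, in SKBR3, C5.2 and HB4a. In HB4a ERRFI1 is highest with rapamycin and lowest with doxorubicin in all 5 experiments and NRG1 is highest with doxorubicin and lowest with rapamycin in all 5. In SKBR3 NRG1 stays at background (-0.12 to 0.59).

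Responses were then compared between lines in fits of 2 lines. ERRFI1 answered doxorubicin and rapamycin differently in SKBR3 and HB4a. The doxorubicin response was 0.25 in SKBR3 and -0.93 in HB4a, a difference of 1.18 ± 0.23 (adjusted p = 8.44e-04). The rapamycin response was 0.18 in SKBR3 and 1.26 in HB4a, a difference of -1.08 ± 0.23 (adjusted p = 0.00166). Against C5.2, whose rapamycin response was 1.16, the difference was -0.98 ± 0.33 (adjusted p = 0.0702, and 1.1e-06 with line and experiment number as the block). ERRFI1's doxorubicin response was -0.17 in C5.2 and -0.93 in HB4a, a difference of 0.76 ± 0.30 (adjusted p = 1, and 0.00266 with the block). Without the block 0 of 6 members differed in response between C5.2 and HB4a, where 0.101%, 0% and 0.373% of genes were called for doxorubicin, rapamycin and both. With the block ERRFI1 was the 1 of 6 called for doxorubicin (1.97% of genes), and 0 of 6 were for rapamycin (2.53%).

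Of the ligands, HBEGF's response to both drugs was lower in SKBR3 than in HB4a by a difference of -0.98 ± 0.22 (adjusted p = 0.00249), and it passed the filter through HB4a alone. TGFA and NRG1 were at background in SKBR3, where no response could be measured, so no difference is given for them. ERBB3's rapamycin response was 0.43 in SKBR3 and 0.02 in HB4a, a difference of 0.41 ± 0.16 (adjusted p = 0.15, and 5.27e-04 with the block). For SKBR3 against HB4a the fit called 3 of 6 members with doxorubicin, 1 of 6 with rapamycin and 2 of 6 with both, where 3.87%, 5.03% and 9.82% of genes were called. By direction 1 was higher and 2 lower with doxorubicin (1.1% and 2.76% of genes), 0 and 1 with rapamycin (1.57% and 3.47%) and 0 and 2 with both (3.38% and 6.44%). These counts include TGFA with doxorubicin and with both drugs and NRG1 with doxorubicin, and nothing is read from them. For SKBR3 against C5.2 0 of 5 were called in each, where 1.47%, 6.23% and 12.3% were. With the block the rapamycin response differed for 4 of 6 members between SKBR3 and HB4a (22.5% of genes) and for 2 of 5 between SKBR3 and C5.2 (32.4%). The doxorubicin response then differed for 6 of 6 (15.9%) and 3 of 5 (8.23%), TGFA and NRG1 included. These comparisons share the HB4a or C5.2 vehicle arrays with those within lines.

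Genes around the family were described from lists of other ligands, ligand shedding, adaptors, receptor turnover and ERK output. These lists were chosen with earlier results of these data known. Their counts and medians beside those of all genes are therefore description, and nothing is read from them. Of EGF, NRG2, NRG3 and NRG4, 0 passed the filter. The ERK output list, which holds genes that ERK signalling induces and the phosphatases and SPRY proteins that restrain it, differed widely between lines in vehicle. In SKBR3 against HB4a 2 of 12 tested genes were higher and 10 lower (37.6% and 39.7% of all genes), in SKBR3 against C5.2 2 of 12 and 8 (36.2% and 42.6%), and in C5.2 against HB4a 2 of 14 and 6 (29.3% and 19.9%). With rapamycin 4 of its 12 tested genes rose and 0 fell in HB4a, where 2.08% of all genes rose (median 0.58, all genes 0.01), and 7 of 12 rose and 0 fell in C5.2, where 2.83% rose (median 0.48, all genes -0.08). In SKBR3 1 of 6 rose, where 7.48% did (median 0.37, all genes -0.03). DUSP5, a nuclear ERK phosphatase, rose by 1.90 ± 0.28 in HB4a (adjusted p = 2.62e-04), and EGR1, an immediate early transcription factor, by 1.26 ± 0.30 in HB4a (adjusted p = 0.0187) and by 1.99 ± 0.34 in C5.2 (adjusted p = 7.48e-04). DUSP6, a cytoplasmic ERK phosphatase, rose by 1.41 ± 0.22 in C5.2 (adjusted p = 3.97e-04). With both drugs 6 of 12 rose in HB4a and 6 of 12 in C5.2, with 0 falls in either, and 1 of 6 rose in SKBR3, where 10.9%, 6.42% and 8.35% of all genes rose. With doxorubicin 1 of 12 rose (the ephrin receptor EPHA2, 0.59 ± 0.15) and 1 fell (MYC, -1.01 ± 0.14) in HB4a, where 8.66% of all genes rose and 2.77% fell, and 0 of 12 in C5.2 and 0 of 6 in SKBR3 were called.

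Of the genes for shedding of ligands, RHBDF1, an inactive rhomboid, rose with doxorubicin in HB4a (0.50 ± 0.15, adjusted p = 0.0367), 1 of 4 tested where 8.66% of all genes rose, while the sheddase genes ADAM9 and ADAM10 were not called there. Of the adaptors STAT3 rose with doxorubicin in HB4a and C5.2 (0.40 ± 0.12 and 0.40 ± 0.11, adjusted p = 0.0293 and 0.0465), 1 of 7 tested in each, where 8.66% and 2.84% of all genes rose. SHC1 and GRB2, which link receptors to RAS, fell with rapamycin in C5.2, by 0.32 and 0.31 on the log2 scale (adjusted p = 0.0024 and 0.0155), 2 of 7 where 14.6% of all genes fell. None of the receptor turnover genes was called for a treatment against vehicle in any line (0 of 4 in HB4a, 0 of 6 in C5.2 and 0 of 5 in SKBR3). Over the 3 treatments, 3.18% to 17.4% of all genes were called in HB4a, 3.26% to 21% in C5.2 and 0.837% to 22% in SKBR3. So few genes were tested that nothing is read from the absence of calls. Between lines in vehicle 6 of its 6 tested genes were called in SKBR3 against HB4a, 7 of 7 in SKBR3 against C5.2 and 2 of 6 in C5.2 against HB4a, where 77.3%, 78.8% and 49.2% of all genes were. LRIG1, which promotes loss of ERBB receptors, averaged 5.55 in SKBR3 and 2.85 in C5.2, against 0.97 in HB4a, where it was at background. SH3KBP1, an adaptor of receptor uptake, differed between SKBR3 and HB4a by -1.62 ± 0.10 (adjusted p = 1.42e-17). The ubiquitin ligase gene CBL was 1.04 ± 0.21 higher in C5.2 than in HB4a (adjusted p = 1.05e-04). STUB1, on the same list, differed there by -0.32 ± 0.10 (adjusted p = 0.00667), so 1 gene was called higher and 1 lower.

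The genes most like each member were taken by Pearson's r over the 12 group means, each centred on the mean of its line, among 7714 genes. They were SINHCAF (r = 0.98), TRIO (0.98) and SAMD4A (0.97) for EGFR, RGS3 (0.97), CANT1 (0.95) and FAM83H (0.95) for ERBB3, HINT2 (0.95), ADSS1 (0.95) and PGBD5 (0.94) for HBEGF, and SINHCAF (0.96), SLC38A2 (0.96) and KLF11 (0.96) for ERRFI1. SINHCAF stood on the lists of both EGFR and ERRFI1. The 12 means share arrays and controls within a line, and r describes them only.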

How the data were processed

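RNA of 60 cultures was read on Affymetrix U133 Plus version 2 arrays. The deposited values are log2 probe set summaries made by the authors with RMA, the only tool in the submitters' processing notes, with no version given. Base 2 was taken from the range, -0.60 to 13.08, and whether 1 run covered all arrays is not given in the sources used here. The vehicle group, titled DRC, was taken from the source names, which give DMSO, as were doses in nM. Symbols came from the platform annotation (41091 of 54675 probe sets with 1 symbol, 1801 with several, 11721 unnamed here, 62 controls left out). For each gene the probe set with the highest mean over the 60 arrays was taken. Tests used limma 3.58.1 in R 4.3.3 (lmFit, eBayes with trend, 2-sided), over 20 arrays within a line and 40 between 2 lines. Named were the members, ERBB2, up to 2 rises and 2 falls per list and contrast, and the 3 genes most like a member. The members and lists were chosen with earlier results of these data known.

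Arrays of equal experiment number were taken as paired where the lowest correlation of their residuals exceeded 0.1. This held for SKBR3 treatments (lowest 0.238), HB4a without the combined group (0.428), C5.2 except both drugs against vehicle (-0.100), and C5.2 against HB4a in vehicle (0.163). It did not hold for HB4a with both drugs (-0.569) or SKBR3 against another line. Alternatives changed the filter, the probe set rule, the normalization, the variance prior, the block, the arrays in the fit and each array in turn. A test on simulated HB4a data recovered 84.5% of shifts of 1 log2 unit and 44.4% of shifts of 0.5, with 6092 genes fitted. The number of arrays limits the precision. Figures were drawn with matplotlib 3.10.9 in Python 3.11.15.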

Additional observations from a re-analysis of the deposited data

Results flagged for a closer look

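Of 64 member-by-group sets of 5 arrays, 10 held an array whose gap to the next exceeded Dixon's 95% critical value of 0.71, where chance flags about 5%. Of these, 6 were SKBR3 arrays of experiment 1, all low: EGFR at 5.27 with both drugs, 5.07 with doxorubicin and 5.08 in vehicle, HBEGF at 2.24 with both drugs, and ERRFI1 at 6.37 with both drugs and 6.21 with rapamycin. Arrays of experiment 2 were low for EGFR in C5.2 with rapamycin (6.06) and for ERRFI1 in C5.2 with both drugs (7.03) and in HB4a vehicle (7.17). ERBB3 in C5.2 vehicle was high on the array of experiment 6 (4.93).

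The other results to look at again are responses that differed between SKBR3 and HB4a by the test of the difference itself. ERRFI1 differed by 1.18 with doxorubicin and by -1.08 with rapamycin. In HB4a it fell with doxorubicin and rose with rapamycin, while in SKBR3 no change was shown with either drug in the main fit. HBEGF differed by -0.98 with both drugs, and in SKBR3 it was dim.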

How the results depend on the processing

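No call reversed its direction. Over single values, 6392 alternatives stayed on their side of the threshold, 79 lost a call and 93 gained one, and 117 uncalled values changed sign. Requiring log2 above 7 left fewer members tested, with 3 calls in place of 8 for treatments in HB4a, 4 in place of 8 for both drugs against each drug, 1 in place of 3 in C5.2, 6 in place of 13 for lines in vehicle and 2 in place of 6 for response differences. The mean of all probe sets, which takes dim ones in, left 2, 2, 1, 2 and 2, and 0 in place of 1 in SKBR3. The replicate block on experiment number gave 15 calls for both drugs against each drug, 7 in C5.2, 4 in SKBR3 and 20 response differences. With only the arrays compared it gave 13, 3 in SKBR3 and 17. The block also raised the share of all genes called per contrast. For both drugs against each drug it was 6.64% to 49.6%, against 0.552% to 22% without the block. In C5.2 it was 17.4% to 44.2% against 3.26% to 21%, and in SKBR3 5% to 50.5% against 0.837% to 22%. For response differences it was 1.97% to 38.2% against 0% to 12.3%. Nothing is read from these counts. The block changed no direction. Where the numbers did not pair the arrays, it called EGFR and ERRFI1 with both drugs against vehicle in C5.2 (adjusted p = 0.0124 and 8.01e-05) and the response to both drugs of HBEGF and ERRFI1 in C5.2 against HB4a (2.61e-05 and 0.0192). With only the arrays compared and no block, both drugs against each drug gave 5 calls, and 5 with each array centred. All 60 arrays in 1 fit left 0 in SKBR3, and response differences without the arrays that stood apart numbered 12. For these the cause was not tested. Leaving out each of the 60 arrays in turn gave 7 to 8 calls in HB4a, 5 to 10 for both drugs against each drug (5 without HB4a both-drug array 3 or rapamycin array 3), 1 to 4 in C5.2 (1 without rapamycin array 4), 1 in SKBR3, 13 for lines in vehicle and 4 to 7 response differences. ERRFI1's rises with rapamycin and fall with doxorubicin, and the rises of HBEGF and TGFA in HB4a, passed the threshold in every alternative in which they were tested. Signal limits ERBB4, EREG and BTC, for which nothing was compared, and TGFA and NRG1 in SKBR3, which gave bounds between lines and no measurable response, although 3 of the 6 response calls were theirs.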
